A study of Mus musculus with 4 samples.

Results

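Tex genes are mouse genes named for their expression in the testis. The members described here were the protein-coding genes of GENCODE release M21 whose symbol begins with Tex and a digit, with Tex12 left out, and they numbered 37 of 21938 protein-coding genes. IGF2BP3 eCLIP-seq clusters were assigned to a Tex gene when their centre lay in the gene span on the same strand.

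The name groups genes by where they were found to be expressed, and the proteins belong to unrelated families. TEX11 and TEX14 act in meiotic recombination and in the intercellular bridges of germ cells, TEX15 and the TEX19 proteins in the silencing of transposons, and TEX101 on the sperm surface, while TEX2, TEX261 and TEX264 are proteins of the endoplasmic reticulum found in many tissues. IGF2BP3 is an RNA-binding protein with RNA recognition motifs and KH domains that binds mRNAs, is known to affect their stability and translation, and is among the readers of m6A.

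The study mapped the RNA bound by IGF2BP3 in testes of wild-type C57BL/6 mice that were 8 weeks old, a tissue labelled as holding both germ cells and somatic cells. A suspension of 2 testes was crosslinked with ultraviolet light, RNA was fragmented, and an antibody against IGF2BP3 gave the IP library, while a size-matched input (SMInput) was kept from the lysate without the antibody. Each of 2 replicates paired 1 IP library with 1 SMInput library, 4 libraries in all, with no further genotype or treatment. The files used here list, for each replicate, read clusters with their position, strand, log2 fold change of IP over SMInput and −log10 P, the authors' own values.

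The tables held 337234 clusters in replicate 1 and 216354 in replicate 2. The read totals recovered from the listed values were 5133438 IP and 8706391 SMInput reads in replicate 1, and 4637612 and 16696122 in replicate 2. Clusters whose log2 fold change and −log10 P both reached 2, the limits used in the study, are called significant peaks. Read numbers given below are whole numbers that return both listed values, and a number of 1 SMInput read is the lowest the calculation allows and may stand for 0 or 1. Intervals on a log2 fold change are exact 95% intervals from these reads and cover counting error only.

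Markers of the cell types of the tissue were checked through the same clusters. Of 28 markers of spermatids, spermatocytes, spermatogonia, Sertoli, Leydig and peritubular cells, 28 had a cluster in replicate 1 and 27 in replicate 2, where the Sertoli gene Rhox5 had none. Over their clusters in replicates 1 and 2, spermatocyte markers summed to 5511 and 10749 SMInput reads, spermatid markers to 5346 and 9986, and spermatogonium markers to 366 and 596. These sums, and those below, leave out clusters with a −log10 P of 0, whose reads were not recovered. Reads shared by neighbouring clusters can count more than once. The sums are therefore not the total reads of the markers. The somatic sums were 2654 and 4280 for Leydig, 1336 and 2143 for Sertoli and 180 and 286 for peritubular markers. Most of the Leydig reads, 2536 and 4061, were of the single gene Insl3. Of the Sertoli reads, 745 and 598 were of Wt1, whose deepest cluster had 390 in replicate 1 and 33 in replicate 2. The liver, pancreas and heart genes Alb, Ins2 and Myh6 had 0 clusters in either replicate.

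Tex genes held 711 clusters in replicate 1 and 477 in replicate 2. Of these, 50 (7.03%, 95% Wilson interval 5.37 to 9.15) were significant peaks in replicate 1, where 4.91% of all clusters in protein-coding genes were. In replicate 2, 65 (13.6%, 10.8 to 17.0) were significant, beside 13.1% of all clusters in protein-coding genes. The interval of replicate 1 lay above the share of all clusters, and that of replicate 2 held it. With clusters on exons of other genes of the same strand left out throughout, replicate 1 had 44 of 690 (6.38%, 4.78 to 8.45). This share was still above the 4.91% of all, but its interval held that value. Neighbouring clusters share reads and are not independent, and Wilson intervals do not take account of that. The median log2 fold change was 1.35 in replicate 1 and 1.43 in replicate 2 for the Tex clusters, and 1.46 and 1.53 for all clusters in protein-coding genes.

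By gene, 17 of the 33 Tex genes with a cluster had a significant peak in replicate 1 (51.5%), against 40.8% of all protein-coding genes with a cluster. Replicate 2 gave 19 of 32 Tex genes (59.4%), against 62.8% of all. A significant peak in both replicates was found for 14 of the 32 Tex genes with clusters in both (43.8%, 28.2 to 60.7), and for 39.1% of all such genes. Significant peaks that shared 1 base or more between the replicates were found in 7 of the 32 (21.9%, 11 to 38.8), against 16.6% of all. The 4 shares of Tex genes lay within their counting error of the background, since each Wilson interval held the share of all genes.

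**Figure D1:**
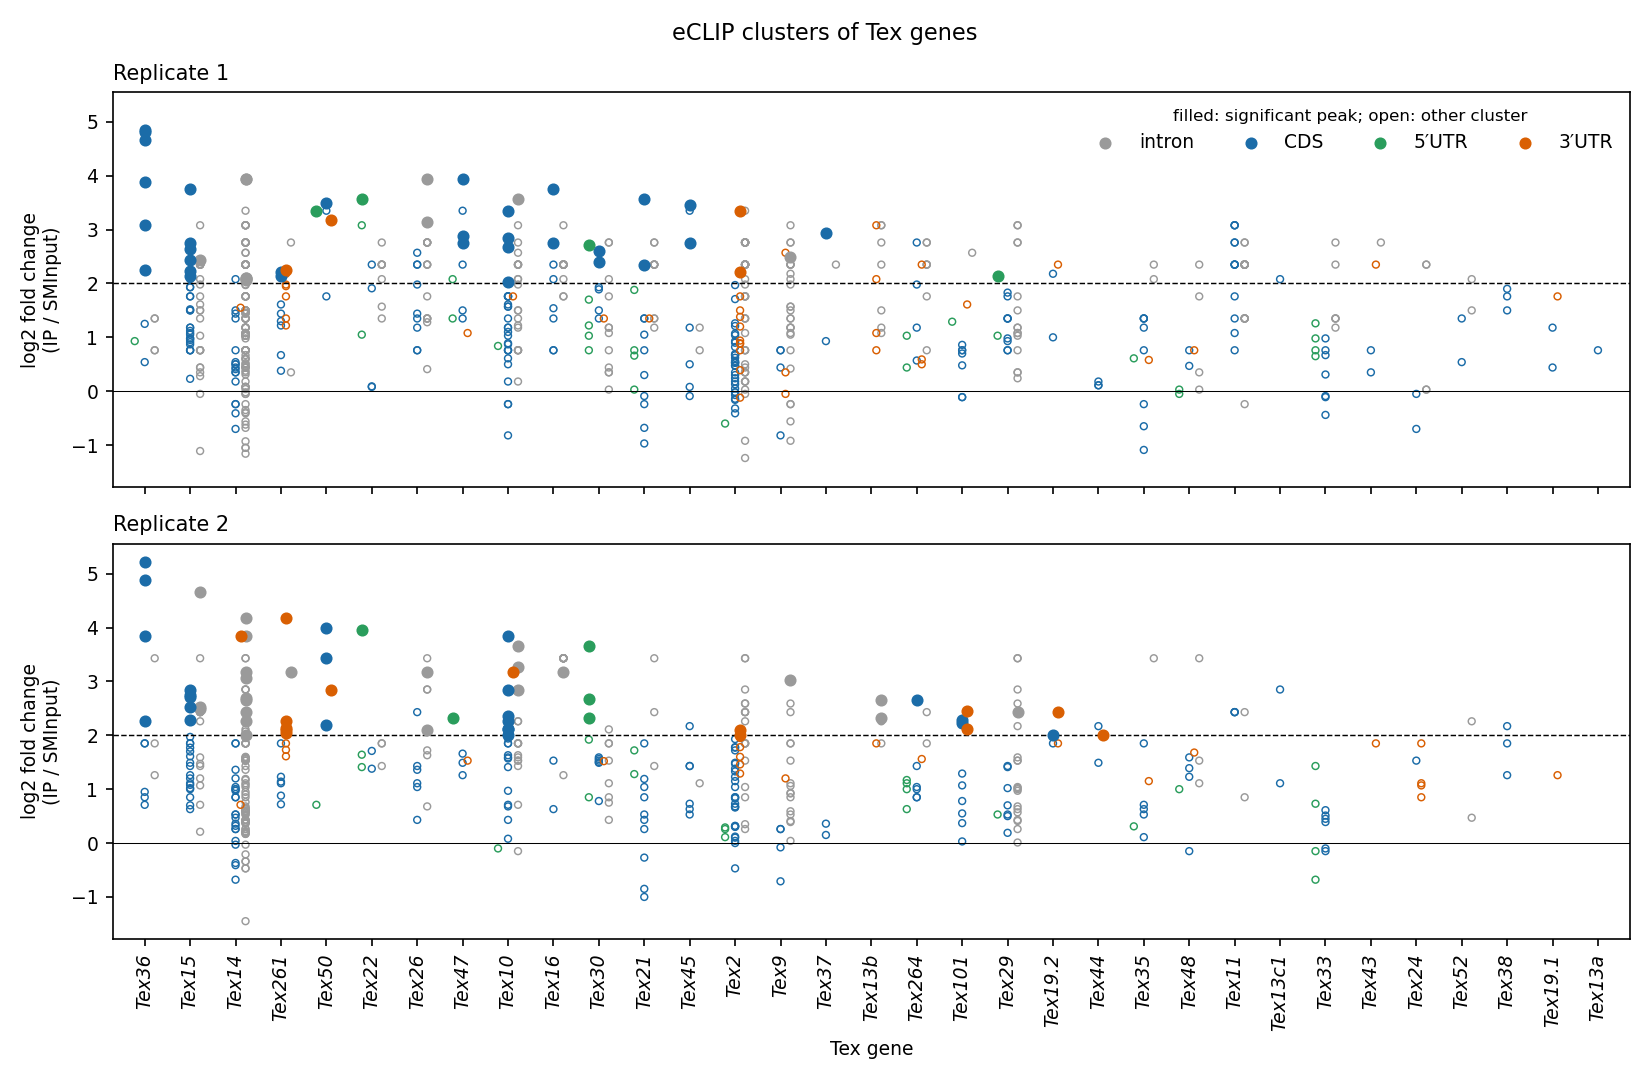
Each point is an eCLIP cluster of a Tex gene, with the log2 fold change of IP over SMInput on the vertical axis, the 33 Tex genes with a cluster on the horizontal axis and a panel for each replicate. Filled points are significant peaks, open points other clusters, colours give the gene region, and the dashed line marks a log2 fold change of 2. Tex36 holds the highest significant peaks of both panels, at 4.85 and 5.22.

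Significant peaks of Tex genes lay in the coding sequence (CDS) more often than those of all protein-coding genes in both replicates. With the order 3′UTR, CDS, 5′UTR and intron for a centre that fits several transcripts, 31 of 50 peaks were in the CDS in replicate 1 (62.0%, 48.2 to 74.1), and 29.0% of all peaks were. The corresponding share in replicate 2 was 23 of 65 (35.4%, 24.9 to 47.5), beside 20.9% of all. Tex clusters as a whole also lay in the CDS more often, 35.0% and 41.5% beside 27.2% and 34.6% of all clusters. Of the Tex clusters in the CDS, 12.4% (8.91 to 17.1) were significant in replicate 1, above the 5.23% of all CDS clusters, while the 11.6% (7.87 to 16.8) of replicate 2 had an interval that held the 7.90% of all. The CDS peaks came from 11 genes in replicate 1, with 6 from Tex15 and 6 from Tex36, and from 7 genes in replicate 2, with 7 from Tex10.

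In 3′UTRs, 4 of 50 peaks were found in replicate 1 (8.00%, 3.15 to 18.8) and 14 of 65 in replicate 2 (21.5%, 13.3 to 33.0), beside 43.9% and 37.3% of all peaks in protein-coding genes. In the transcript with the longest CDS, the 3′UTR had a median length of 165 bases over the Tex genes and 730 bases over all protein-coding genes. Per kilobase of 3′UTR in genes with a cluster, Tex genes had 0.271 and 0.950 significant peaks in replicates 1 and 2, and all genes had 0.355 and 0.567. The order of Tex genes and all genes therefore differed between the replicates on this scale. Per kilobase of CDS the values were 0.633 and 0.481 for Tex genes and 0.175 and 0.235 for all genes. Lengths for both scales came from the transcript with the longest CDS, while peaks could lie on other transcripts of a gene. The 3′UTR peak of Tex10 in replicate 2, for example, lay outside the length counted. Introns held 11 and 23 of the Tex peaks (22% and 35.4%), beside 24.5% and 39.8% of all peaks. In 5′UTRs there were 4 (8.00%, 3.15 to 18.8) and 5 (7.69%, 3.33 to 16.8), beside 2.51% and 2.01% of all. Both 5′UTR intervals lay above the share of all peaks, but 1 of the 4 and 3 of the 5 were at a single Tex30 site where another gene lies. Without Tex30 the shares were 6.38% (2.19 to 17.2) and 3.23% (0.889 to 11), still above those of all, which both intervals held. So few peaks cannot decide whether a 5′UTR excess stood apart from that site.

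Of the members with clusters in both replicates, a significant peak in both was found for 2 of 5 in the meiosis and germline genome group (40%, 11.8 to 76.9), 5 of 6 widely expressed (83.3%, 43.6 to 97.0), 1 of 7 in the sperm maturation and fertilisation group (14.3%, 2.57 to 51.3) and 6 of 14 others (42.9%, 21.4 to 67.4). The widely expressed group alone had an interval above the 39.1% of all genes. It counts Tex30, whose replicate 2 peaks all lie also on another gene. Leaving such clusters out gave 4 of 6 (66.7%, 30 to 90.3), an interval that held the 38.7% of all genes. With 6 genes the group could be neither set apart from all genes nor shown to be like them.

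The meiosis and germline genome group had 5 members, all with clusters, and 2 of them, Tex14 and Tex15, had significant peaks in both replicates. Tex15, which acts in piRNA-directed methylation of transposons, had 7 and 8 significant peaks in the replicates. At 3 CDS sites, significant peaks of the replicates overlapped. The site chr8:33582546-33582588, in exon 3 of 4 and 217 bases before the CDS end, had a log2 fold change of 2.64 (1.29 to 4.23; 22 IP and 6 SMInput reads) in replicate 1. Replicate 2 gave 2.71 there (1.82 to 3.66; 31 and 17 reads). A neighbouring site, shared over 9 bases at chr8:33582334-33582342, had 2.43 (1.04 to 4.04) and 2.75 (1.83 to 3.73). The remaining site, chr8:33576944-33577022 in exon 1, had 2.76 (0.87 to 5.23) and 2.29 (1.22 to 3.4). These sites were picked for reaching the thresholds in both replicates, so their closeness is no measure of how well the replicates match. Other Tex15 peaks were significant in 1 replicate alone, such as an intron peak at chr8:33565043-33565207 with 2.48 (1.30 to 3.72) in replicate 2, where the clusters of replicate 1 reached 0.76. The single highest Tex15 value, 4.66 in replicate 2, was an intron peak with 7 IP reads and 1 SMInput read and no cluster over it in replicate 1.

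Tex14, required for the stable bridges between germ cells, had the most clusters of any Tex gene, 144 and 101, and 6 and 10 significant peaks. None of these overlapped between the replicates. In replicate 1, 4 adjoining intron peaks at chr11:87462451-87462505 had log2 fold changes from 2.07 to 2.11 with 201 to 208 IP reads and 81 to 82 SMInput reads. They lie on the U3 small nucleolar RNA gene Rnu3b4, or run just past its end. Replicate 2 had clusters over the same bases with log2 fold changes of 1.58 and 1.60 and −log10 P of 11.3 and 11.7, below the fold threshold alone. Significant peaks of replicate 2 overlay 2 further copies in the same gene, Rnu3b1 with 4.17 (5 IP reads and 1 SMInput read) and Rnu3b2 with 3.85 (12 and 3 reads). Copies of U3 are near-identical, and how reads that match several places were treated is not given in the sources used here, so these values are uncertain for each copy and do not describe the Tex14 mRNA. In its exons, Tex14 had 1 significant peak, in the 3′UTR in replicate 2, with a log2 fold change of 3.85 (1.52 to 7.12; 8 and 2 reads).

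Tex11, the X-linked meiotic recombination gene, had the most clusters over both replicates of the Tex genes without a significant peak, 34 in replicate 1 and 5 in replicate 2. Its highest log2 fold changes were 3.08 and 2.43, but no cluster had more than 6 IP reads. The paralogues Tex19.1 and Tex19.2 had few clusters, 3 and 1 for Tex19.1 and 3 and 4 for Tex19.2. Tex19.2 passed the thresholds in replicate 2 only, at a CDS peak with 2.01 (0.99 to 3.04; 19 and 17 reads) where replicate 1 had 1.0 (−0.27 to 2.3), and at a 3′UTR peak with 2.43. At this depth the CDS values of the replicates were not distinguishable. In whole tissue, a low read number from few cells of a type and from little RNA per cell cannot be told apart.

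The widely expressed group had 6 members, and 5 of them, Tex2, Tex9, Tex10, Tex30 and Tex261, had significant peaks in both replicates. Tex10, a subunit of the complex that matures the large ribosomal subunit and silences heterochromatin, had 5 and 11 significant peaks. A single Tex10 site was shared, chr4:48468566-48468628 in the CDS of exon 4 of 16. It had a log2 fold change of 2.67 (1.02 to 4.72; 15 and 4 reads) in replicate 1 and 3.85 (1.96 to 6.31; 12 and 3 reads) in replicate 2. The other significant peaks of Tex10 in replicate 2 were below the threshold or without a cluster in replicate 1.

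Tex30, which encodes a hydrolase-like protein, had the deepest shared site of the Tex genes. Over chr1:44099853-44099976, in the 5′UTR of exon 2 of 6, replicate 1 had a log2 fold change of 2.71 (2.02 to 3.46; 85 and 22 reads) with a −log10 P of 18.5. The highest of 3 adjoining peaks in replicate 2 had 3.65 (2.93 to 4.42; 73 and 21 reads) with a −log10 P of 38.0. An exon of the non-coding gene Gm29247 lies over the same bases and strand, so the reads could belong to either transcript. A further replicate 1 peak, with 2.61, begins at the start of exon 3, and spliced reads across that junction can count for both.

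Tex2, which carries lipids between membranes at the endoplasmic reticulum, had a shared site in its last exon, at chr11:106503094-106503134 and 482 bases past the stop codon. The log2 fold change was 3.35 (1.81 to 5.33; 24 and 4 reads) in replicate 1 and 2.09 (1.21 to 2.98; 26 and 22 reads) in replicate 2. Tex261, which acts in transport from the endoplasmic reticulum to the Golgi, had 3 and 6 significant peaks, 1 and 5 of them in its 3′UTR. None overlapped between the replicates. The highest, at chr6:83769995-83770034, had 4.17 (1.94 to 7.40; 10 and 2 reads) in replicate 2 and no cluster over it in replicate 1. Tex9 had 1 significant peak in each replicate, both in introns and at different places. Tex264, a receptor for the autophagy of the endoplasmic reticulum, had 1, in the CDS in replicate 2, with 7 IP reads.

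The sperm maturation and fertilisation group had 8 members, 7 of them with clusters, and 1, Tex22, had significant peaks in both replicates. They lay at the same site of the 5′UTR, in exon 1 of 3, and shared 88 bases at chr12:113074677-113074764. Replicate 1 had a log2 fold change of 3.57 (1.45 to 6.75; 14 and 2 reads) and replicate 2 had 3.95 (2.73 to 5.38; 30 and 7 reads).

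Tex101, a glycoprotein of the sperm surface needed for the processing of ADAM3, had 10 clusters in each replicate and significant peaks in replicate 2 alone, where there were 4. The strongest, chr7:24668030-24668100 in the 3′UTR, had 2.45 (1.74 to 3.18; 44 and 29 reads) with a −log10 P of 14.3. The replicate 1 cluster over it had 1.61 (0.87 to 2.38; 45 and 25 reads) with a −log10 P of 5.35. These intervals overlapped, so the fold threshold separated replicates that were not distinguishable by counting error. Tex44 had 1 significant peak, in replicate 2, at the threshold itself with 2.00 (0.55 to 3.48; 10 and 9 reads). Tex38, whose protein works with the palmitoyltransferase ZDHHC19, reached 1.90 and 2.17 without a significant peak. Tex33 and Tex35 were, after Tex11, the genes with the most clusters over both replicates and no significant peak, 17 and 10 for Tex33 and 12 and 8 for Tex35. Tex43 likewise had no significant peak, and Tex46 had no cluster.

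The remaining 18 members, whose roles are less well described, included the highest values of all Tex genes. Tex36 had 6 and 4 significant peaks in replicates 1 and 2, and every one was in its CDS. At chr7:133594406-133594432, at the 3′ end of exon 3 of 4, the highest log2 fold change was 4.85 (2.89 to 7.95; 34 and 2 reads) in replicate 1 and 5.22 (3.54 to 7.57; 31 and 3 reads) in replicate 2. At chr7:133587536-133587577, at the start of exon 4, the values were 4.67 (2.69 to 7.78; 30 and 2 reads) and 3.85 (2.62 to 5.29; 28 and 7 reads). These sites adjoin in the spliced mRNA, and reads across the junction can count for both. A separate site in exon 4, at chr7:133587235-133587315, had 3.08 (1.26 to 5.51) and 2.26 (0.89 to 3.69).

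Tex50 had 3 of 5 clusters significant in replicate 1 and 4 of 5 in replicate 2. Near the start of its CDS, at chr1:161159101-161159171, the log2 fold change was 3.50 (1.75 to 5.89; 20 and 3 reads) in replicate 1 and 3.99 (2.55 to 5.74; 22 and 5 reads) in replicate 2. In its 3′UTR, at chr1:161156907-161156976 and 158 bases past the stop codon, it was 3.18 (1.37 to 5.60; 16 and 3 reads) and 2.85 (1.17 to 4.75; 10 and 5 reads). The Tex50 sites thus lay in separate exons, and both were present in both replicates.

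**Figure D2:**
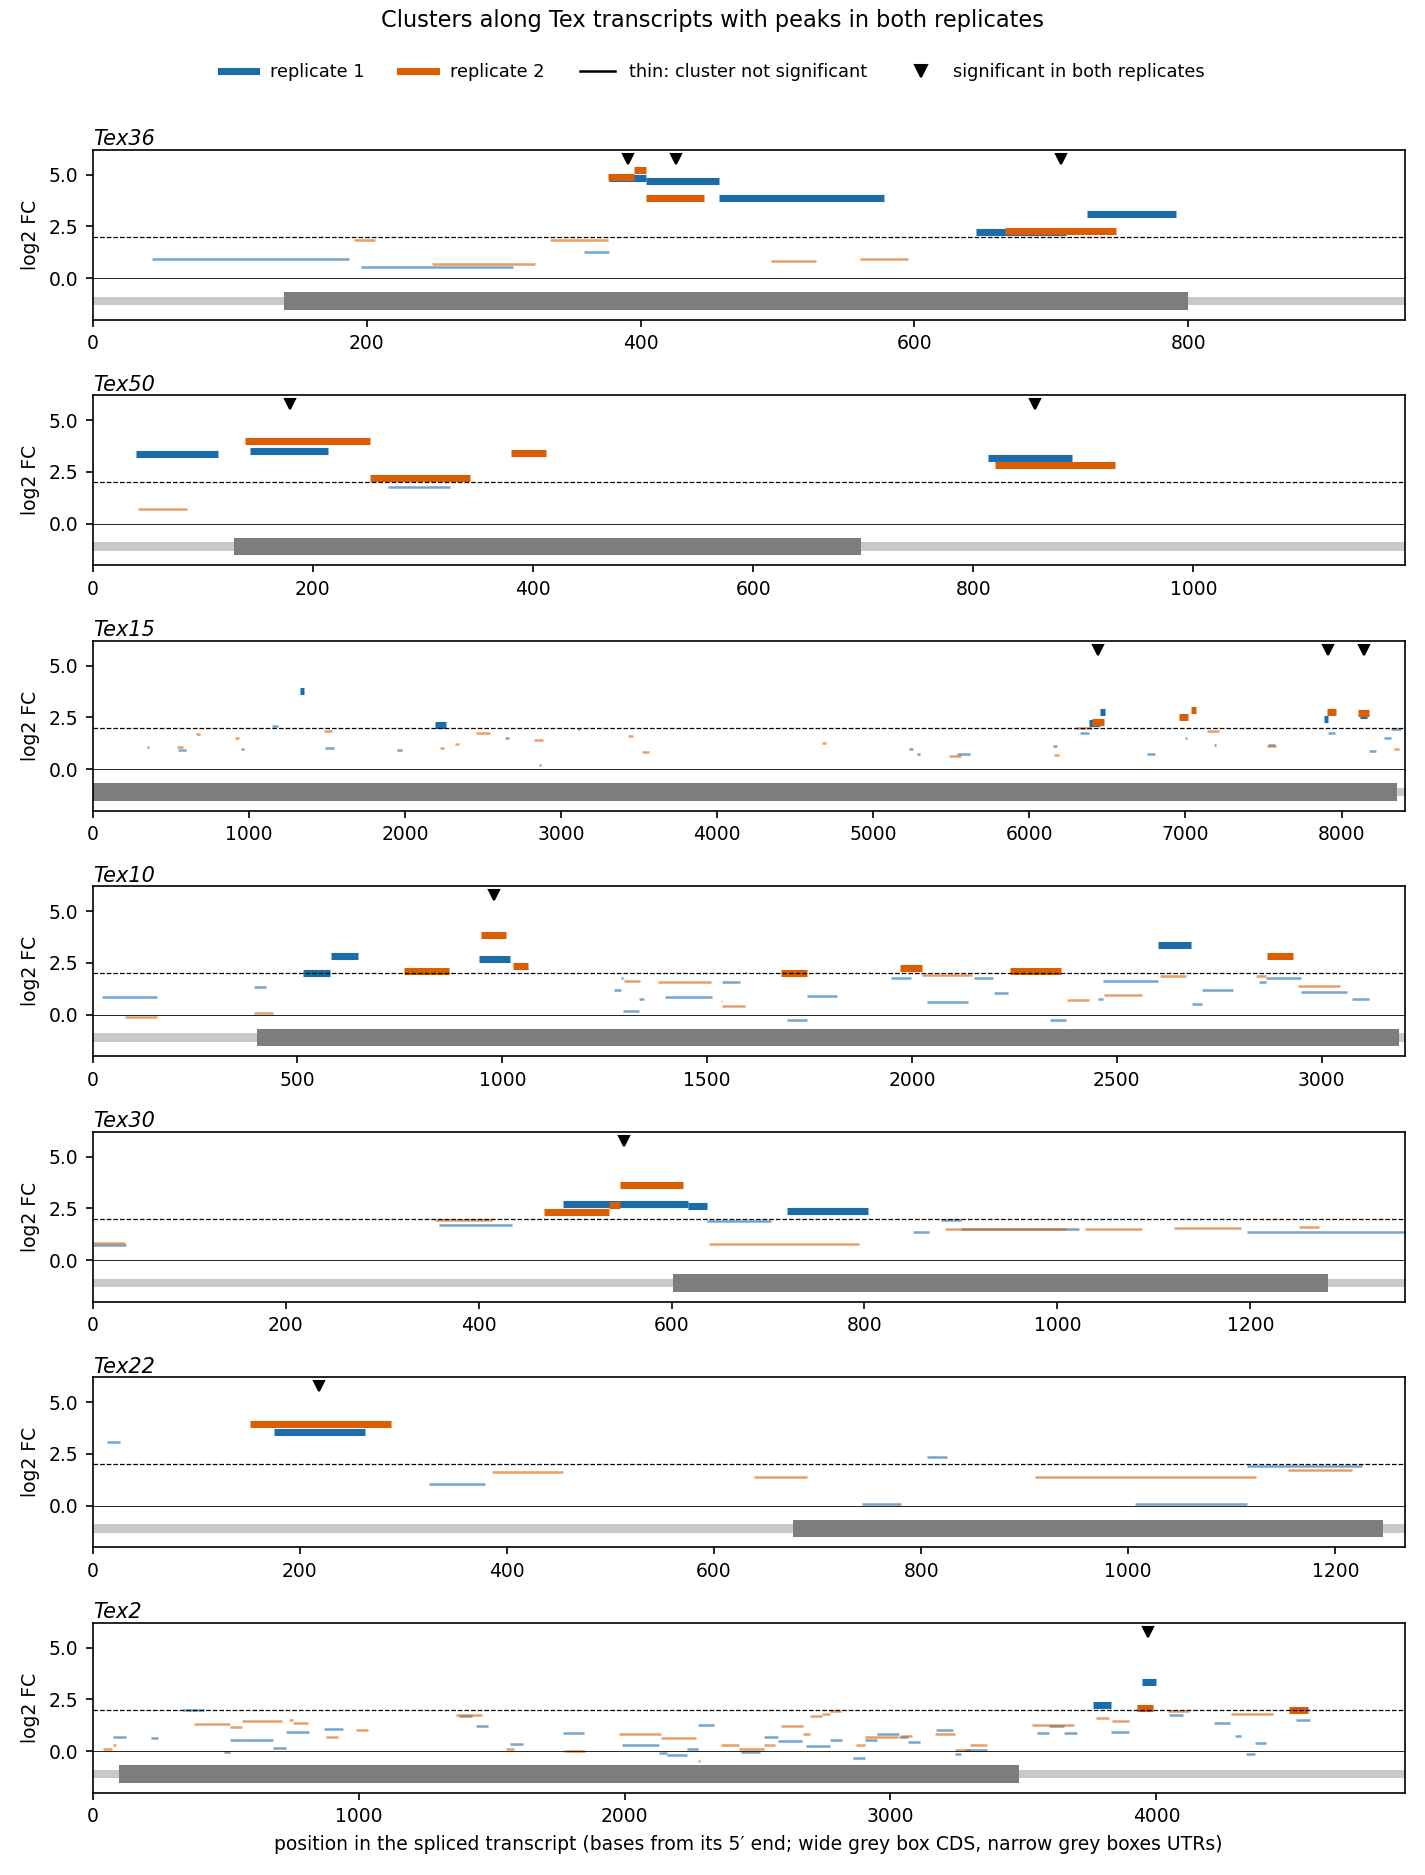
Each panel is the spliced transcript with the longest CDS of a Tex gene with overlapping significant peaks, with position in bases on the horizontal axis and the log2 fold change of IP over SMInput on the vertical axis. Thick bars are significant peaks, thin bars other clusters, blue is replicate 1, orange is replicate 2, and triangles mark the sites significant in both, as at exons 3 and 4 of Tex36.

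Tex16, Tex26, Tex29 and Tex47 had significant peaks in both replicates at different places. All 3 Tex16 peaks lie also in the span of the protein-coding gene Gm45194 and cannot be given to either gene. In Tex26, an intron peak with 3.14 (26 and 5 reads) in replicate 1 and 2 intron peaks with 3.17 and 2.09 in replicate 2 lie on the non-coding gene 4933425D22Rik. The highest Tex47 peak, in the CDS, had 3.93 (2.23 to 6.30; 27 and 3 reads) in replicate 1 and no cluster over it in replicate 2.

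Tex21, Tex37 and Tex45 had significant peaks in replicate 1 alone, and Tex13b, Tex19.2, Tex44, Tex101 and Tex264 in replicate 2 alone. The 3 with the highest values were those of replicate 1. Tex21 had 3.57 (0.61 to 9.06; 7 IP reads and 1 SMInput read) and Tex37 had 2.93 (0.66 to 6.18; 9 and 2 reads), each with no cluster over it in replicate 2. Tex45 had 3.46 (1.32 to 6.65; 13 and 2 reads), and the cluster over it in replicate 2 had 2.17. In all, 11 members had clusters but no significant peak in either replicate, namely Tex11, Tex13a, Tex13c1, Tex19.1, Tex24, Tex33, Tex35, Tex38, Tex43, Tex48 and Tex52. Tex13c2, Tex13c3, Tex28 and Tex46 had no cluster in either replicate.

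Across replicates, 15 of the 50 significant Tex peaks of replicate 1 (30%) and 15 of the 65 of replicate 2 (23.1%) lay over one that was significant in the other, beside 32.9% and 18.4% of all significant peaks in protein-coding genes. They formed 12 sites in the 7 genes, 8 in the CDS, 2 in 3′UTRs and 2 in 5′UTRs. Counting any cluster, 33 of the 50 (66.0%, 52.2 to 77.6) and 40 of the 65 (61.5%, 49.4 to 72.4) had one over them in the other replicate, beside 53.3% and 41.6% of all significant peaks. The highest log2 fold change over these Tex peaks was above 0 for 33 and 38. Of all clusters in protein-coding genes, 91.8% in replicate 1 and 93.4% in replicate 2 were above 0, so this count is no measure of agreement. Over 269 overlapping Tex clusters the log2 fold changes of the replicates had a Pearson r of 0.606 and a Spearman rho of 0.507, and over 81686 clusters of all protein-coding genes 0.622 and 0.586. This is a correlation across clusters of 1 pair of replicates, which share neighbouring reads and transcript abundance and are not independent.

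**Figure D3:**
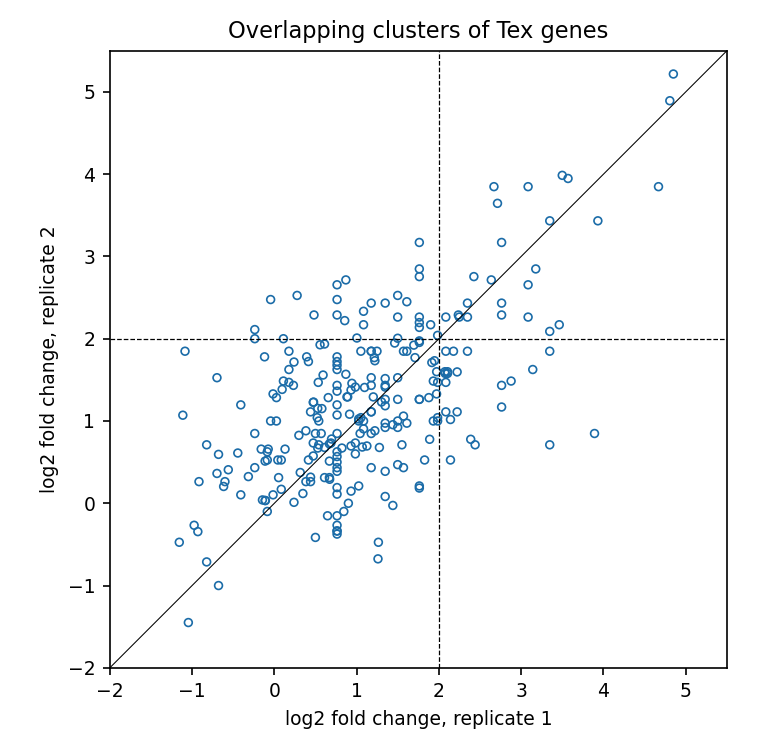
Each point is a pair of overlapping clusters of a Tex gene, with the log2 fold change of IP over SMInput in replicate 1 on the horizontal axis and in replicate 2 on the vertical axis. Dashed lines mark a log2 fold change of 2 and the diagonal marks equal values, and the 269 pairs have a Pearson r of 0.606.

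The peaks rested on few reads, in Tex genes as in all genes. The median significant Tex peak had 14 and 10 IP reads in replicates 1 and 2, beside 13 and 8 over all genes, and the fewest were 7 and 5. Of the significant Tex peaks, 11 of 50 and 28 of 65 had fewer than 10 IP reads (22% and 43.1%, beside 29.0% and 61.9% of all significant peaks with recovered reads). A single SMInput read lay behind 7 and 2 Tex peaks (14% and 3.08%, beside 22.9% and 25.7%). With P values adjusted by the Benjamini-Hochberg method over all clusters of each table, 37 of the 50 and 62 of the 65 stayed at or below 0.05. No share of all significant peaks is set beside these counts, so they show nothing particular to Tex genes.

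Sequences of the shared sites are given to show the RNA under the peaks that both replicates hold, for the site of each of the 7 genes with the largest smaller value of the replicates, the other Tex36 sites and the 3′UTR site of Tex50. They were read from GRCm38.p6, the patch release of mm10, on the RNA strand from 5′ to 3′, with U written as T. CDS sequences run from the first to the last base of the shared stretch whose position is given above. UTR sequences are the 30 bases at its middle, at chr1:161156927-161156956 for the Tex50 3′UTR, chr12:113074706-113074735 for Tex22, chr1:44099900-44099929 for Tex30 and chr11:106503100-106503129 for Tex2. In the further Tex36 exon 4 sequence, 66 of the 81 bases were shared, and the others lie between 2 significant peaks of replicate 1. Tex15 and Tex22 lie on the plus strand, and the Tex2, Tex10, Tex30, Tex36 and Tex50 sequences are the reverse complement. Capitals mark the motif GGAC and the motifs GAACA and AAACC as well as CACA, which have been linked to IGF2BP proteins or m6A and were searched on the RNA strand alone, where matches can overlap.
Tex36 exon 3: cagaactctggatactattttgactct
Tex36 exon 4: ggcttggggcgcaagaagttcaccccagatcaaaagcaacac
Tex36 exon 4 further on: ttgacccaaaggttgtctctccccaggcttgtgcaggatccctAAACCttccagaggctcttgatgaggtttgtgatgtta
Tex15 CDS: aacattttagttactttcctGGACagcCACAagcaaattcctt
Tex10 CDS: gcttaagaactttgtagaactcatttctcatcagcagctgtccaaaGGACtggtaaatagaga
Tex50 CDS: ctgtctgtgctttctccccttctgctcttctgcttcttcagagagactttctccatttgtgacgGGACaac
Tex50 3′UTR: cCACAatcattacagaaaaattctcagacg
Tex22 5′UTR: tgtcccggagcctacagagcccttcccaga
Tex30 5′UTR: cttttcagagagatgccctttgcttctcag
Tex2 3′UTR: gagaatgtcactgtggtaacctgtgtggag

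GGAC stood in the Tex50 CDS, Tex10 and Tex15 sequences, and CACA in the Tex15 and Tex50 3′UTR sequences. AAACC stood in the separate exon 4 site of Tex36, but ran into the bases there that were not shared. Neither Tex36 sequence at the exon junction held any of the motifs. Within 100 bases centred on each peak, GGAC was found in 13 of 50 significant Tex peaks in replicate 1 (26%, 15.9 to 39.6) and in 22 of 65 in replicate 2 (33.8%, 23.5 to 46.0). All significant peaks in protein-coding genes gave 26.2% and 23.9%, and all clusters gave 25.4% and 25.7%. CACA was in 46.0% (33.0 to 59.6) and 24.6% (15.8 to 36.3) of the Tex windows, in 36.9% and 34.6% of those of all significant peaks, and in 33.9% and 32.0% of those of all clusters. The order of Tex peaks and all peaks was thus opposite in the 2 replicates for CACA. The motif GAACA was in 8.00% and 7.69% of Tex windows, 8.88% and 8.32% of those of all significant peaks and 9.37% and 8.97% of those of all clusters. AAACC was in 6.00% and 10.8% of Tex windows, 8.62% and 8.07% of those of all significant peaks and 7.64% and 7.19% of those of all clusters. At this width the Wilson interval of the Tex share held the share of all significant peaks for all 4 motifs in both replicates. Within 50 bases it did so for all but CACA in replicate 1, which was in 32% of Tex peaks (20.8 to 45.8) and 19.8% of all significant peaks, while replicate 2 had 13.8% and 17.7%. A match says only that these letters stand in the window.

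Partners known to work with TEX proteins were taken from a list of 25 genes, of which 24 matched a symbol. The list was chosen with earlier results of these data known, so its shares are no independent test. In replicate 1, 16 of 24 had a significant peak (66.7%, 46.7 to 82), beside 40.8% of all protein-coding genes, and in replicate 2, 16 of 23 (69.6%, 49.1 to 84.4), beside 62.8%. A significant peak in both replicates was found for 13 of the 23 with clusters in both (56.5%, 36.8 to 74.4), beside 39.1% of all protein-coding genes. With both thresholds at 3 it was found for 1 partner gene, and no share of all genes was set beside that count. Overlapping significant peaks were found for 4 of the 23 (17.4%, 6.98 to 37.1), Cep55, Mael, Adam3 and Gabarap, beside 16.6% of all. Of these 4 shares, the interval of replicate 1 alone lay above the share of all genes, and the others held it. Cep55, the bridge protein that TEX14 binds, had a highest significant log2 fold change of 3.85 in replicate 1 (17 and 2 reads) and 2.53 in replicate 2 (8 and 5 reads), both in its 3′UTR. Mael, a piRNA pathway gene, had 6 and 14 significant peaks, and 5 of the 6 overlapped. Adam3, whose protein depends on TEX101, had 4 and 5.

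Gabarap, whose protein is among the autophagy proteins that TEX264 binds, had 13 of 14 clusters significant in replicate 1 and 13 of 15 in replicate 2, with highest log2 fold changes of 6.27 and 5.82 in its 3′UTR. These exceeded every Tex gene. The partners of TEX11 (Sycp2, Hfm1) and of TEX10 (Senp3, Pelp1) had significant peaks in both replicates with none that overlapped. The same held for Kif23, Plk1, Adam5, Zdhhc19 and Arrdc5. Ubr2, Ly6k, Las1l and Nbn had clusters in both and no significant peak.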

How the data were processed

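eCLIP-seq of IGF2BP3 in testis was analysed as 2 tables of clusters, 1 for each pair of IP and SMInput libraries. The authors trimmed reads, dropped those from ribosomal RNA, aligned the others to mm10, removed PCR duplicates and called clusters. The submitters' processing notes name cutadapt, Bowtie2 and STAR. The deposited −log10 P was calculated by the authors from IP and SMInput reads in each cluster, and runs from 0 to 400. The log2 values are the authors' fold changes of IP over SMInput, each scaled to its library.

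Library totals and reads per cluster were recovered as the whole numbers that return both listed values, using Fisher's exact test if an observed or expected number was under 5 and the Yates-corrected chi-square otherwise. This rule and its tolerance were the last of several versions tried on these tables, and were kept because they left the fewest clusters unsolved. An earlier version gave lower totals for replicate 2, and thus fewer reads per cluster. The totals kept were those with the most solutions at a tighter tolerance in a sample of clusters. The recovered reads are therefore a calculation and not an independent check. A single solution was found for 98.9% and 99.4% of clusters listed between 0 and 400, and for all significant Tex peaks. The procedure was tested on simulated data made with the same rule and totals, so that test could not check either of these.

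Genes and regions came from GENCODE release M21, with regions from its basic transcripts, and sequence from GRCm38.p6. In replicates 1 and 2, 0 and 0 clusters ran past a chromosome end. With 2 replicates no test between samples was made. The members and lists were chosen with earlier results of these data known. Named genes were those with overlapping significant peaks, the 5 with the most significant peaks, the 3 with the most clusters and no significant peak, and the 3 highest of those significant in 1 replicate. Other genes were named as lists, and those described beyond the rule were chosen after their values were seen. Alternatives covered thresholds, reads per peak, gene assignment, nested genes, overlap, order of regions, motif window and each replicate alone. Python 3.11.15, numpy 2.4.6, pandas 2.3.3, scipy 1.17.1, statsmodels 0.14.6, pysam 0.24.0 and matplotlib 3.10.9 were used.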

Additional observations from a re-analysis of the deposited data

How the results depend on the processing

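Counts were held to have moved when they changed by more than 1.5 times, and shares when they left their Wilson interval. Of 79 values for the counts and shares under alternatives, 14 moved. With both thresholds at 3, significant Tex clusters were 17 in replicate 1 and 14 in replicate 2, Tex genes 9 and 9, Tex genes in both replicates 5, Tex genes with overlapping peaks 3 (Tex22, Tex36 and Tex50) and partner genes in both 1. When a log2 fold change of 1 was enough, significant Tex clusters were 80 and 114, and 11 Tex genes had overlapping peaks. With the centre in an exon, replicate 2 had 42 significant Tex clusters (16%, beside 15.3% of all). At that setting 9 Tex genes had peaks in both replicates (29%, beside 32.3% of all genes). Assignment by the nearest transcription start site gave 99 clusters in replicate 2, and at least 10 IP reads gave 37. These settings change which clusters can count, and no other cause was tested. For the thresholds, the nearest start sites and the 10 IP reads, no share of all genes was set beside the counts. Those counts therefore show nothing particular to Tex or partner genes. The 7 genes with overlapping peaks were the same 7 under the adjusted P, 10 IP reads, exon, span overlap, single gene and longer overlap settings. Nearest start sites gave 10 genes, 6 of them among the 7. In an alternative chosen after seeing the data, leaving out clusters on exons of other genes nested on the same strand gave 44 and 58 significant clusters and 6 genes with overlapping peaks, without Tex30. Shares of Tex clusters, peaks and genes were also set beside all genes in this way, with centres in exons and without Tex30, all chosen after seeing the data. The intervals for CDS peaks in both replicates and for partner genes in replicate 1 stayed above the shares of all genes, and that for 3′UTR peaks stayed below. Members and the partner list were chosen with earlier results of these data known, so this is no independent test of them. The interval for significant clusters in replicate 1 came to hold the share of all genes with nested genes left out and with centres in exons. That for 5′UTR peaks did so with nested genes left out and without Tex30 but not with centres in exons, and that for the widely expressed group in all. These shares themselves stayed above those of all genes. For significant clusters in replicate 1 they were 6.38% beside 4.91% with nested genes left out, and 12.2% beside 9.15% with centres in exons. The interval for significant CDS clusters in replicate 2 lay above the share of all genes only without Tex30. That for peaks of replicate 2 with a cluster over them in replicate 1 no longer did with centres in exons. The share of Tex peaks in 3′UTRs stayed within its interval under the alternatives run for it, except in replicate 2 with centres in exons. There it was 33.3%, beside an interval of 13.3 to 33, while replicate 1 had 10.3%. The other gene assignments were not run for this share. Either replicate alone gave 17 to 19 Tex genes, and 16 to 16 partner genes. The overlap between replicates could not be computed without replicate 1 or replicate 2. No paired test of IP against SMInput over the 2 replicates was made. The 50 base window moved 7 of 8 motif shares of Tex peaks, and the shares of all significant peaks fell too, in replicate 1 from 26.2% to 14.1% for GGAC and from 36.9% to 19.8% for CACA.

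Depth limits these results. Peaks with few reads pass or miss the thresholds by single reads, genes with few IP reads can fall short of significance, and a missing peak does not show missing binding. Read numbers rest on recovered values, and intervals leave out variation between mice.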
